A study of Mus musculus with 6 samples.

Results

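Sertoli cell genes were described in cultured male mouse germline stem cells sorted into CDH1+/THY1+ and CDH1-/THY1+ populations. The set was 10 genes chosen by name as markers of Sertoli cells (Wt1, Gata4, Sox8, Sox9, Amh, Dhh, Inha, Clu, Trf and Defb36). Each was found by its Ensembl identifier among the 22432 rows of the authors' deposited table, and none was absent. CDH1 is the adhesion protein E-cadherin, and THY1 is a surface glycoprotein by which germline stem cells are often enriched. Each population had 3 samples, 1 from each of 3 cultures named RP7, RP5 and WT1. The culture name WT1 is unrelated to the gene Wt1. The strain of RP7, aged 8 weeks, and of RP5, aged 19 days, was OCT4/GFP; Dox-OCT4, and WT1 was C57BL/6 at 5 weeks. All samples were male, at passage 6 to 8, and had grown on DR4 embryonic fibroblast feeders with GDNF, FGF and transferrin protein in the medium. Whether feeder cells were removed beyond the sort is not given in the sources used here.

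Sertoli cells are the somatic cells of the seminiferous tubule. They surround germ cells, supply them with iron, lipids and growth factors, and form the blood-testis barrier. The transcription factors WT1, GATA4, SOX9 and SOX8 set up and keep their identity, AMH, DHH and inhibin are their hormones and signals, and clusterin and transferrin are among their abundant secreted proteins. Several of these genes are also expressed by fibroblasts and other cells, so none of them alone marks a Sertoli cell.

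The question was which RNAs differ between THY1+ cells that carry CDH1 on their surface and those that do not. Of the 10 Sertoli cell genes, Clu was higher in CDH1+/THY1+ cells, while Trf, Sox8 and Defb36 were lower. Wt1, Gata4, Sox9, Dhh and Inha were not called, and Amh had too few reads for an adjusted p. A gene is called here when its adjusted p, from the authors' DESeq2 Wald test over the whole table, is under 0.05. By that rule 1 of the 9 Sertoli cell genes with an adjusted p was higher, against 17.1% of all 19211 rows with one, and 3 were lower, against 16.4%. Together, 4 of 9 were called, against a background of 33.5%, so the number of calls among so few genes says nothing particular about them. The median log2 fold change of the 10 genes was 0.62, against 0.01 for all rows. That median was 0.16 over the 8 of them whose mean count reached 10. In RNA from bulk samples, fewer cells of a type and less RNA per cell cannot be told apart.

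Values are those of the authors' deposited table, which gives 1 fold change, standard error and mean count per gene and no value per sample. The mean count is the read count divided by a size factor for each library and averaged over all 6 libraries, so it is not a level of either population. A value with ± is a fold change on the log2 scale, with CDH1+/THY1+ on top, and its standard error. The direction rests on the name of the table, and Cdh1 was not analysed here. In that direction 11 of 14 germ cell genes were lower, and all 16 fibroblast genes had values above 0, as given below. The direction was not tested in another way, so every statement of higher or lower depends on that name. No row had a log2 fold change above 2.14, while the lowest was -2.94, so counts of higher genes cover only the rows at hand. The 95% intervals were computed from the fold change and its standard error. Standard errors stopped at 0.639 even for genes with almost no reads, as they do for fold changes shrunken towards 0, in which changes of genes with few reads are understated.

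**Figure D1:**
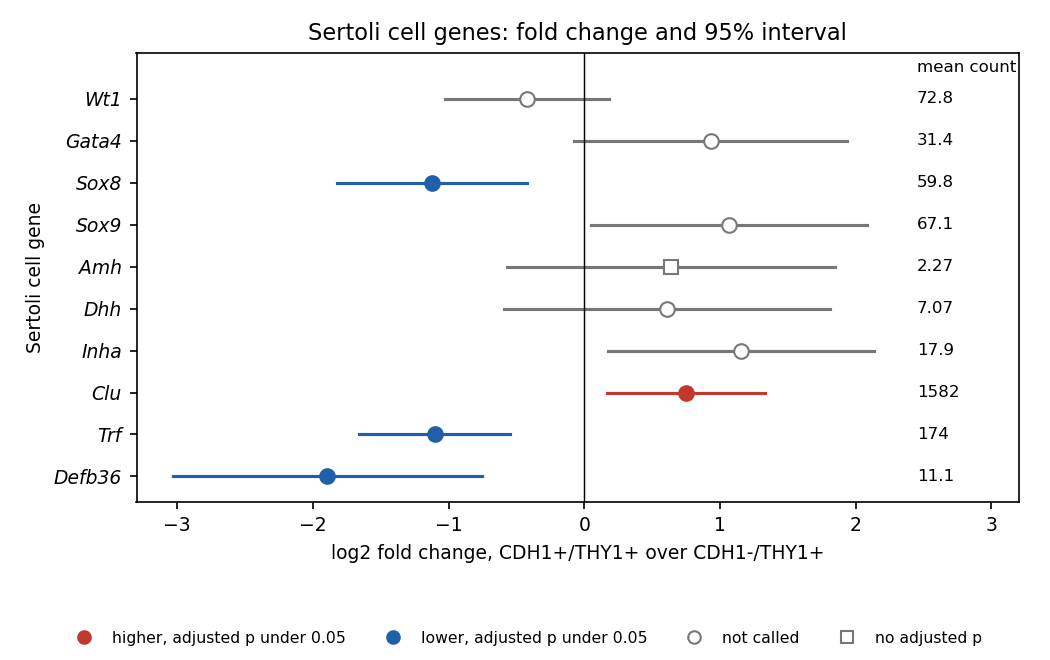
Log2 fold change (x axis, positive where CDH1+/THY1+ was higher) of the 10 Sertoli cell genes (y axis, ordered by role), with lines for 95% intervals and the mean normalised count at the right. Trf, Sox8 and Defb36 lie below 0 and Clu above 0, with intervals that do not reach 0, and the intervals of Sox9 and Inha also stay above 0 without an adjusted p under 0.05.

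Per kilobase of merged exon, the 10 genes covered a wide range of mean counts. Clu stood far above the others at 460 normalised counts per kb in the authors' deposited table, higher than 91.3% of all rows on that scale. Trf followed with 52.5 counts per kb, close to the median of 53.0 for rows with an adjusted p. Then came Defb36 with 23.8, Sox8 with 19.2, Sox9 with 16.2, Inha with 12.1, Wt1 with 11.8 and Gata4 with 8.05 counts per kb. Dhh and Amh were at the low end, with 1.61 and 1.36 counts per kb in the authors' deposited table. The spread between samples is unknown, so whether neighbours in this order differ cannot be said. Reads are a limit for most of the set, since 8 of the 10 genes had a mean count under the all-row median of 97.5.

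Of the 4 transcription factor genes, only Sox8 was called. Sox8, a SoxE factor that backs up Sox9 in Sertoli cells of mice (chr17:25565892-25570686, GRCm38), had a mean count of 59.8 in the authors' deposited table. It was lower in CDH1+/THY1+ cells at -1.12 ± 0.36 in the authors' deposited table, a 2.17-fold lower level (adjusted p = 0.00704, DESeq2). Its 95% interval ran from -1.82 to -0.42. Only 6.55% of rows with an adjusted p had a fold change as low or lower.

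Sox8 shares its locus with an antisense gene, 2810468N07Rik, which covers 329 bases of Sox8 exons, 10.6% of them. That gene had -1.14 ± 0.40 and a mean count of 38.4 in the authors' deposited table (adjusted p = 0.0163, DESeq2). The strand setting of the counting is not given in the sources used here. Reads in the shared bases therefore cannot be given to one gene or the other, while the rest of the Sox8 exons is free of this overlap.

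Sox9, the SoxE factor that acts after Sry in testis determination (chr11:112782224-112787760), stood on the other side of 0 with a mean count of 67.1 in the authors' deposited table. Its value was 1.06 ± 0.52 in the authors' deposited table, 2.09-fold, and it was not called (adjusted p = 0.0978, DESeq2). The 95% interval ran from 0.05 to 2.08, and the unadjusted p was 0.0404. The standard error was larger than those of 98% of the 200 genes nearest in mean count, whereas that of Sox8 was larger than 64%. The difference between Sox9 and Sox8 was not tested, because the table gives no covariance between genes.

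Gata4, a zinc finger factor needed for the early gonad and for Sertoli cell gene expression (chr14:63198922-63271692), had a mean count of 31.4 and 0.93 ± 0.51 in the authors' deposited table. It was not called (adjusted p = 0.15, DESeq2), with a 95% interval from -0.07 to 1.94 and a standard error above those of 90.5% of its 200 neighbours. Wt1, a zinc finger factor required for gonad formation and for Sertoli cell identity (chr2:105126529-105173616), had the opposite sign at -0.42 ± 0.31 in the authors' deposited table. Its mean count was 72.8 and it was not called (adjusted p = 0.30, DESeq2). The 95% interval for Wt1 was -1.03 to 0.18. In all, 2 of the 4 transcription factors had values below 0 and 2 above.

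The hormone and signal genes had few reads. Inha encodes the alpha subunit of inhibin, the Sertoli cell hormone that lowers FSH release (chr1:75507077-75510366). Its mean count was 17.9 and its value 1.15 ± 0.50 in the authors' deposited table, 2.23-fold, with an adjusted p of 0.0565 (DESeq2), just outside the threshold. When p-values were adjusted only over rows whose mean count reached 10, the adjusted p of Inha was 0.0499.

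Dhh, the hedgehog ligand through which Sertoli cells reach Leydig and peritubular cells (chr15:98891152-98898540), had a mean count of 7.07 and 0.61 ± 0.61 in the authors' deposited table (adjusted p = 0.478, DESeq2). Amh, which makes the Müllerian ducts regress in male embryos and marks immature Sertoli cells (chr10:80805243-80807648), had a mean count of 2.27 and 0.64 ± 0.62 in the authors' deposited table, with no adjusted p. The standard errors of both lie near 0.639, the highest of any row, and both intervals span from under -0.5 to above 1.8.

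For these genes with few reads the whole reads behind the mean count could be worked out, because 1 read in a library adds a fixed amount to the mean. The 6 libraries stay unnamed and were put in no population. They are called A to F by size factor, from 1.08 for A to 0.913 for F. Amh had 5, 4, 0, 3, 2 and 0 reads in libraries A to F, 14 in all, and 2 libraries had none. Dhh had 15, 9, 7, 1, 5 and 6 reads, 43 in all, so every library held at least 1. Library A held the most reads of both genes, 35.7% of those of Amh and 34.9% of those of Dhh. Of the exon bases of Dhh, 12.4% are shared with Rhebl1 and 25.2% with an antisense gene. Rhebl1, a small GTPase gene on the same strand, had a mean count of 277 in the authors' deposited table. Reads in shared bases may belong to the other genes or may have been left out for Dhh, as counting settings are not given.

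**Figure D2:**
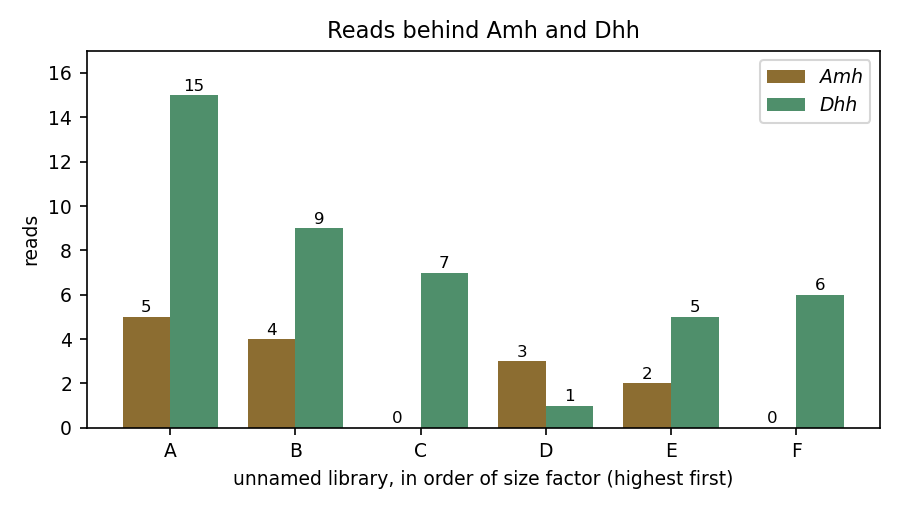
Whole reads (y axis) of Amh and Dhh in the 6 unnamed libraries A to F (x axis, highest size factor first), worked out from the mean counts. Amh had 0 to 5 reads per library and Dhh 1 to 15, and library A held the most reads of both.

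The genes of secreted proteins held the called members of the set other than Sox8. Clu encodes clusterin, a secreted chaperone made by Sertoli cells and by many other cell types (chr14:65968483-65981547). It had the highest mean count of the 10 genes, 1582 in the authors' deposited table, and was 1.68-fold higher in CDH1+/THY1+ cells. Its value was 0.75 ± 0.30 in the authors' deposited table (adjusted p = 0.0355, DESeq2), with a 95% interval from 0.17 to 1.33. The standard error was larger than those of 98.5% of the 200 genes nearest in mean count. The call was lost with a threshold of 0.01 and under the Benjamini-Yekutieli adjustment (adjusted p = 0.463).

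Trf encodes transferrin, the iron carrier that Sertoli cells pass to germ cells behind the barrier (chr9:103204001-103230444). It was lower in CDH1+/THY1+ cells at -1.10 ± 0.28 in the authors' deposited table, 2.15-fold, with a mean count of 174 and an adjusted p of 0.000636 (DESeq2). Its 95% interval ran from -1.66 to -0.55. Trf was the only one of the 4 called genes whose adjusted p stayed under 0.05 with the Benjamini-Yekutieli adjustment (0.00898). Of its exon bases, 63.5% are shared with Gm20425, an annotated gene on the same strand that was not analysed here. Reads in those bases may have been left out for Trf, or may include reads of Gm20425, since the counting settings are not given.

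Defb36, a gene of the beta-defensin family of small antimicrobial peptides that is used as a Sertoli cell marker in mice (chr2:152604327-152612729), had the largest change of the 10. It stood at -1.90 ± 0.58 in the authors' deposited table, 3.72-fold lower in CDH1+/THY1+ cells (adjusted p = 0.00498, DESeq2). The interval was wide, from -3.03 to -0.76, at a mean count of 11.1. Of rows with an adjusted p, 0.843% had a fold change as low or lower. The mean count matched 2 sets of whole reads per library, so no reads are given for it. Other defensin genes of chromosome 2 had fewer reads still. Defb20 had -0.74 ± 0.64 and a mean count of 4.72 in the authors' deposited table (adjusted p = 0.391, DESeq2), and Defb25 had 0.26 ± 0.59, a mean count of 2.38 and no adjusted p.

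The RefSeq promoter table held entries for Sox8, Defb36, Inha and Dhh. The 250 bases before the annotated start are shown for Sox8 and Defb36, both lower in CDH1+/THY1+ cells, as the stretch in which motifs of the set's own GATA and SOX factors were looked for. They are given 5′ to 3′ on the gene's strand in build GRCm38.p6, with a motif match in capitals.
Sox8 (chr17:25570687-25570936, minus strand): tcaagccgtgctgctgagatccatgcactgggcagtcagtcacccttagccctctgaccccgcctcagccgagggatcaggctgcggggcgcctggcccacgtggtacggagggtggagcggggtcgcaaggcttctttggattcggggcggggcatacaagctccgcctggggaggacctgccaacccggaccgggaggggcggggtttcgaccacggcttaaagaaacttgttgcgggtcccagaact
Defb36 (chr2:152604077-152604326, plus strand): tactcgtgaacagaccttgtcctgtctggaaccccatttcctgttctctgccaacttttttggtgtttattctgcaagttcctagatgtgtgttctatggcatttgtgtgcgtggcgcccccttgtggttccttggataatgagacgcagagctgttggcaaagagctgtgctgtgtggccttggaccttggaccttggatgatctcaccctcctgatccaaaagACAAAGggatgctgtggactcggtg
The motifs were AGATAA and TGATAA for GATA factors, which differ only in the first letter, and ACAATG and ACAAAG for SOX factors, each searched on both strands. Defb36 had 1 match, ACAAAG beginning 25 bases before the start, a motif that 16.5% of 32544 promoter stretches of this length hold. The other 3 motifs, which 9.97%, 7.80% and 10.5% of all stretches hold in the order named, had no match in Defb36. Sox8 had no match to any of the 4 motifs, and neither had Inha or Dhh. For Inha the stretch before the RefSeq start (chr1:75507359-75507608) lies inside the GENCODE gene, so bases before the GENCODE start were not searched. The Sox8 stretch was 65.6% G and C with 18 CpG dinucleotides, the Defb36 stretch 50.4% with 5, and the medians of all stretches were 52.4% and 6. A match of letters does not show binding.

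**Figure D3:**
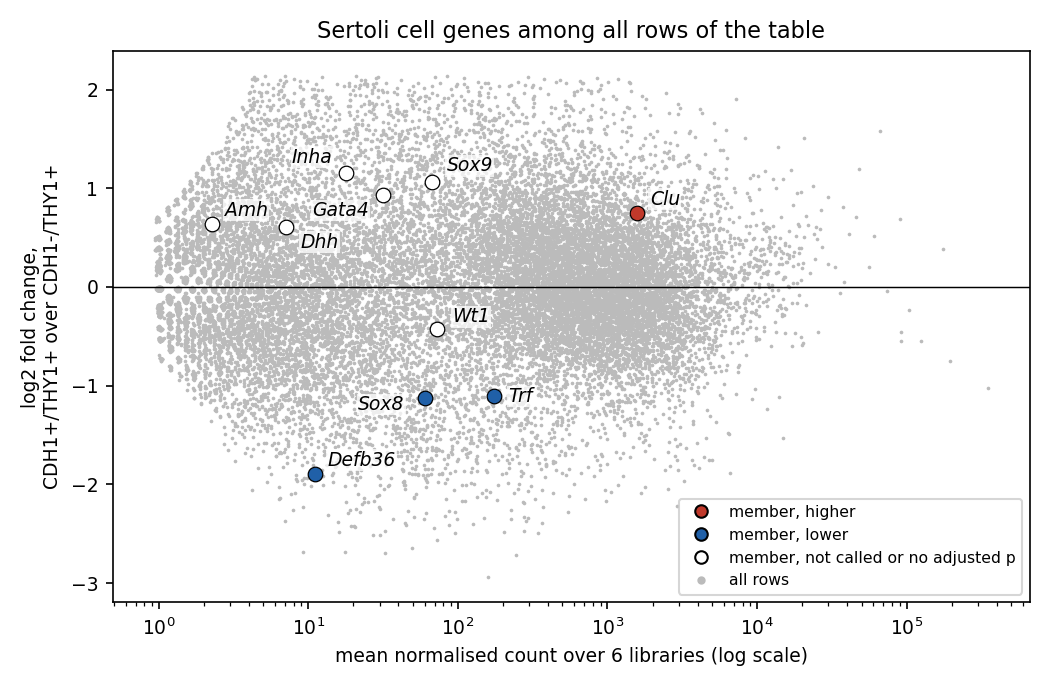
Log2 fold change (y axis, positive where CDH1+/THY1+ was higher) against mean normalised count (x axis, log scale) for all rows (grey) and the 10 Sertoli cell genes (labelled). Defb36 lies near the lower edge at a mean count of 11.1, and Clu, at 1582, lies far to the right of the other 9.

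The Sertoli cell genes differed in how large their standard errors were for their mean counts. Clu, Sox9 and Gata4, with values above 0, had standard errors above those of 98.5%, 98% and 90.5% of the 200 genes nearest in mean count. Sox8, Trf, Wt1 and Defb36, with values below 0, stood at 64%, 77%, 42.5% and 82%. Inha and the scarce Dhh and Amh, also with values above 0, stood at 59.5%, 70% and 20%. A large standard error at a given mean count points to more variation between libraries than is usual after the authors' fit. It does not measure a difference between the populations. Which libraries varied cannot be seen in the table.

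**Figure D4:**
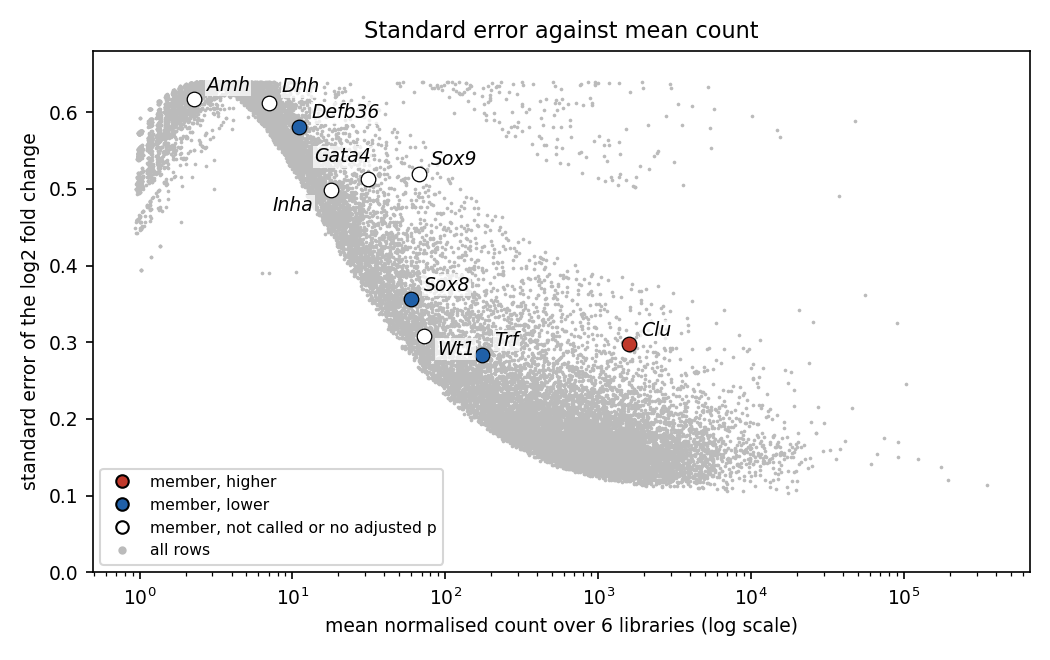
Standard error of the log2 fold change (y axis) against mean normalised count (x axis, log scale) for all rows (grey) and the 10 Sertoli cell genes (labelled). Clu and Sox9 lie well above the bulk of rows of like mean count, and Wt1 lies within it.

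Further genes of Sertoli cells were taken from 4 lists made by role, 74 symbols in all, of which 57 had a row and 55 an adjusted p. Of the 55, 16 were higher and 6 lower, with a median of 0.44 against 0.01 for all rows with an adjusted p. That is 40% called against the background of 33.5%, made up of 17.1% higher and 16.4% lower. The counts of each list below are to be read beside the same background. The other 17 symbols, some of them older names, were not analysed here.

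Among 19 fate factors and inducers with an adjusted p, 52.6% were called, 5 higher and 5 lower, with a median of 0.30. Dmrt1, which keeps Sertoli cells male but is also a germ cell gene, had -1.75 ± 0.22 and a mean count of 4983 in the authors' deposited table (adjusted p = 1.3e-13, DESeq2). Cbx2, a Polycomb gene needed for Sry expression, had -1.25 ± 0.15, and Gadd45g, an inducer of Sry, had 1.15 ± 0.27 in the authors' deposited table. Fgfr2, the receptor for the Sertoli cell signal FGF9, had 1.07 ± 0.18 in the authors' deposited table and Fgf9 itself -1.03 ± 0.34. Nr5a1, the nuclear receptor SF1 that defines gonadal somatic cells, had a mean count of 0.955 in the authors' deposited table, which came from 4, 0, 1, 0, 1 and 0 reads in libraries A to F. Cldn11, the claudin of the blood-testis barrier, had 16 reads over the 6 libraries.

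Of 16 hormones, niche factors and hormone receptors, 6 were higher and 0 lower, with a median of 1.07. That is 37.5% called, near the 33.5% of all rows. At an unadjusted p under 0.05 the counts were 10 higher and 0 lower, and the share of all rows at that threshold was not computed. The activin subunit gene Inhba had 1.26 ± 0.31, the Wnt ligand gene Wnt5a 1.25 ± 0.36, the macrophage growth factor gene Csf1 1.20 ± 0.27 and Bmp4 1.13 ± 0.27 in the authors' deposited table. Inhbb, the inhibin beta B subunit that pairs with the Inha product in Sertoli cells, had 0.14 ± 0.34 and a mean count of 1028 in the authors' deposited table (adjusted p = 0.793, DESeq2). Gdnf, the Sertoli cell factor that germline stem cells depend on and that the medium supplied as protein, had -0.18 ± 0.54 at a mean count of 18.8 in the authors' deposited table. These niche genes are not specific to Sertoli cells, and fibroblasts make several of them.

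Of 9 secreted carriers, proteases and defensins, 22.2% were called, 2 higher and 0 lower, the same counts as at an unadjusted p under 0.05. These were the matrix protein genes Spp1, at 1.51 ± 0.34, and Sparc, at 0.60 ± 0.20 in the authors' deposited table. Of 12 junction and cytoskeleton genes, 33.3% were called, near the 33.5% of all rows, 3 higher and 1 lower. Tubb3 had 1.27 ± 0.32, the intermediate filament gene Vim 0.95 ± 0.26, the tetraspanin gene Tspan6 0.77 ± 0.27 and the tight junction gene Ocln -0.98 ± 0.21 in the authors' deposited table.

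**Figure D5:**
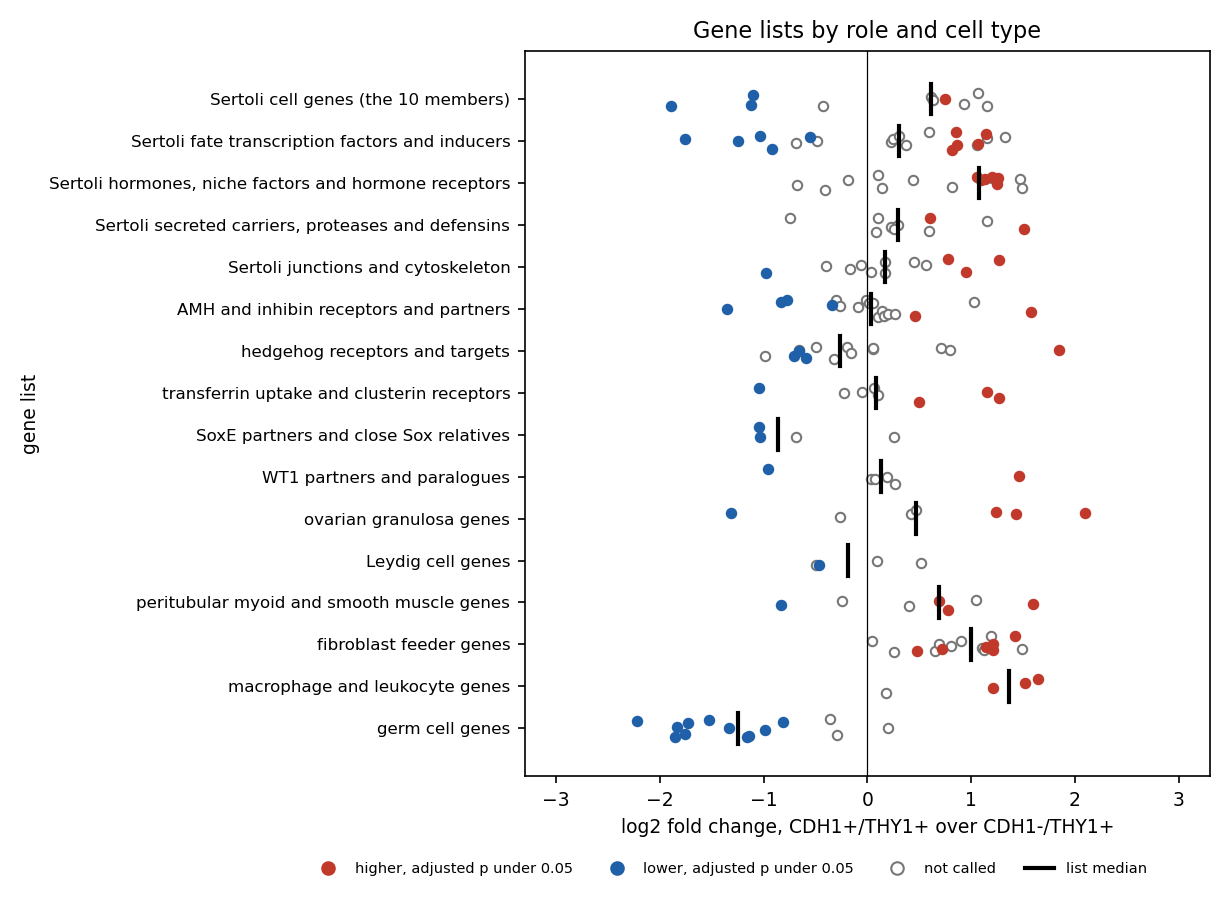
Log2 fold change (x axis, positive where CDH1+/THY1+ was higher) of each gene of the Sertoli cell set and of 15 further lists (y axis), with filled points for called genes and a bar at the median of genes with an adjusted p. The fibroblast list lies wholly above 0, and 13 of the 14 germ cell genes lie below 0.

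Genes that receive or handle the products of the set were mixed. Of 18 genes of AMH and inhibin reception, 33.3% were called, near the 33.5% of all rows, 2 higher and 4 lower. Amhr2, the receptor of AMH, had 1.58 ± 0.53 at a mean count of 17.4 in the authors' deposited table (adjusted p = 0.0112, DESeq2), and Bmpr1b, a BMP type I receptor, had -1.35 ± 0.28. Smad2, a mediator of activin signals, had -0.83 ± 0.15 in the authors' deposited table.

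Of 14 hedgehog pathway genes, 28.6% were called, against 33.5% of all rows, 1 higher and 3 lower. Gli1, a target of hedgehog signals, had 1.85 ± 0.36 at a mean count of 49.4 in the authors' deposited table (adjusted p = 3.04e-06, DESeq2). Disp1, which releases the ligands, had -0.71 ± 0.16 and Gli3, a transcription factor of the pathway, had -0.59 ± 0.19 in the authors' deposited table. Ptch1, the main receptor and also a target, was not called at -0.32 ± 0.17 (adjusted p = 0.12, DESeq2).

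Of 8 genes of transferrin uptake and clusterin reception, 50% were called, against 33.5% of all rows, 3 higher and 1 lower. The transferrin receptor gene Tfrc was not called, at -0.05 ± 0.22 and a mean count of 4356 in the authors' deposited table (adjusted p = 0.894, DESeq2). The second receptor, Tfr2, was lower at -1.05 ± 0.30 in the authors' deposited table, and the endosomal iron reductase gene Steap3 was higher at 1.27 ± 0.19. The receptor genes Lrp8 and Vldlr had 1.15 ± 0.22 and 0.50 ± 0.21 in the authors' deposited table.

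Of 4 relatives of the SoxE genes, Sox13 and Sox6 were lower at -1.04 ± 0.26 and -1.05 ± 0.41 in the authors' deposited table, and Sox10, the third SoxE gene, was not called at a mean count of 10.1. Of 6 partners and relatives of WT1, 33.3% were called, near the 33.5% of all rows, 1 higher and 1 lower. Basp1, a WT1 cofactor, had 1.46 ± 0.19 and Egr2, a related zinc finger gene, -0.96 ± 0.33 in the authors' deposited table.

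Markers of other cells that the samples could hold were read in the same comparison, against backgrounds of 17.1% of rows called higher and 16.4% called lower. All 16 fibroblast genes had values above 0, with a median of 1.00 and mean counts of 296 to 89729 in the authors' deposited table. Of them, 6 were higher and 0 lower, with 37.5% called, near the 33.5% of all rows. Thy1, whose product both populations were sorted on, was among these 6. It had 0.48 ± 0.18 in the authors' deposited table (adjusted p = 0.0292, DESeq2). At an unadjusted p under 0.05 the DESeq2 counts of the fibroblast list were 12 higher and 0 lower. The share of all rows at that threshold was not computed. The standard errors of the fibroblast genes stood at a median of 96.2% of the 200 nearest genes. That median was 90% for granulosa genes, 84.5% for germ cell genes and 73.5% for the 10 Sertoli cell genes. For the further Sertoli lists it was 64% (fate), 86.75% (hormones and niche), 84.5% (secreted) and 76.75% (junctions). Of 14 germ cell genes, 11 were lower and 0 higher, the same as at an unadjusted p under 0.05, with a median of -1.25 and 78.6% called. All 14 germ cell genes had mean counts of at least 166 in the authors' deposited table, averaged over all 6 libraries. Such a mean does not show that each population held germ cells.

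Of 7 granulosa genes of the ovary, 3 were higher and 1 lower. Bmp2 had 2.09 ± 0.52 and Rspo1 -1.31 ± 0.44 in the authors' deposited table. Of 7 peritubular and smooth muscle genes, 3 were higher and 1 lower, led by Cnn1 at 1.60 ± 0.41 in the authors' deposited table. Of 4 macrophage and leukocyte genes, 3 were higher and 0 lower, also at an unadjusted p under 0.05, with Cd68 at 1.65 ± 0.33 in the authors' deposited table. Of 4 Leydig cell genes, 0 were higher and 1 lower, also at an unadjusted p under 0.05, namely Fdx1 at -0.46 ± 0.18 in the authors' deposited table. Summed levels of these lists in each population cannot be given without values per sample. The part of fibroblasts, germ cells or any other cell type in the values of the Sertoli cell genes was not tested.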

How the data were processed

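The submitters' processing notes name build GRCm38.p4, Trimmomatic 0.32, TopHat2 2.1.1, Subread 1.5.0-p3 with featureCounts, R 3.3.1 and DESeq2 1.12.3. Annotation release, counting settings and model formula are not given in the sources used here. The authors' deposited table holds a mean normalised count per gene, a signal that is never negative, a fold change and standard error on the log2 scale, a Wald score, a p-value and an adjusted p-value. The score equalled fold change over standard error to within 1.99e-07. The total count per sample is unknown. Mean counts sum to 16900379 over all rows.

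The 3 samples of each population were used as the authors fitted them. The 3 cultures differ in the age given, and WT1 also in strain, but how many animals stand behind each culture is not stated. Each culture gave 1 sample to each population, and whether the authors' model used that pairing is not given. The p-values set a change against the variation between these samples that their model left. The table has no values per library, so no model was fitted to reads. Symbols, positions and merged exon lengths came from GENCODE M21 (GRCm38), matched on the Ensembl identifier for 22317 rows. An adjusted p-value was empty in 3119 rows with a p-value, whose mean counts were at most 2.51, and in 102 rows without one. Standard errors were ranked among the 200 genes nearest in mean count. Whole reads were recovered from the spacing of mean counts and tested on simulated data. The 6 amounts per read found gave whole reads, to within 5e-09, in 100% of the 1537 rows whose mean count lay under 1.5.

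Of the promoter entries credited to RefSeq (GRCm38.p6), 4 matched a member. Members and gene lists were chosen with earlier results of these data known, and Dmrt1, Inhba, Csf1 and others also belong to other cell types. In each list, up to 4 called genes with the largest change were named. Sox10, Nr5a1, Cldn11, Fgf9, Inhbb, Gdnf, Tfrc, Ptch1, Thy1, Defb20 and Defb25 were named beyond that rule, after their values were seen. Values were computed with Python 3.11.15, numpy 2.4.6 and pandas 2.3.3. Alternatives were another threshold, other adjustments of the p-values, a filter on mean count, a minimum fold and centring.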

Additional observations from a re-analysis of the deposited data

How the results depend on the processing

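Of the 10 Sertoli cell genes, 1 was called higher and 3 lower. The count higher was 0 with an adjusted p under 0.01, 0 under the Benjamini-Yekutieli adjustment and 0 when at least a 2-fold change was asked for, since Clu lost its call in each. By DESeq2's unadjusted p under 0.05, for which no share of all rows was computed, it was 3. It was 2 with the Benjamini-Hochberg adjustment over rows with a mean count of at least 10, where Inha passed (0.0499). The count lower was 1 under the Benjamini-Yekutieli adjustment, where Sox8 (0.0953) and Defb36 (0.068) lost their calls, and 3 under the other alternatives. Further Sertoli cell genes, 16 higher and 6 lower, numbered 10 and 3 with at least a 2-fold change. Other adjustments, filters and thresholds kept those counts within 1.5 times. Centring moved the median of the 10 genes to 0.59. No paired analysis was possible because the table holds no values per library, and for that reason no replicate was left out. Genes with few reads, Amh and Dhh above all, limit the set.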
